A study of Rattus norvegicus with 30 samples.

Results

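Livers of male rats at week 13 were compared with livers of male pups on postnatal day 22, all from animals given the flame retardant DE-71, a commercial blend of polybrominated diphenyl ethers (PBDEs). The labels put 10 of the 30 arrays of the study in these groups, 5 per age, and every probe set that is not a control was read. The rats were of the outbred Wistar Han stock, and the labels name no engineered allele. Their dams received 50 mg/kg DE-71 in 5 ml/kg of corn oil by gavage, 7 days per week, starting on gestation day 6 and ending on postnatal day 21, and the pups were also dosed directly until that day. Animals kept for week 13 were weaned on postnatal day 21, the first day of the adult phase, and were dosed from then on 5 days per week at the same 50 mg/kg. These groups are called dosed adults and dosed male pups below. Vehicle adults and vehicle male pups, 5 of each, had 0 mg/kg on the same schedules, and 5 dosed female pups of postnatal day 22 had 50 mg/kg and 5 vehicle female pups 0 mg/kg. Within a group each animal had its own dam, so a group of 5 is 5 litters, and each animal was measured at 1 age. Age, length of exposure and dosing schedule differ together between the dosed groups and cannot be told apart.

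The array names in the labels begin with a prefix that splits the study into 2 sets, called batches here. What the prefix stands for is not in the labels. Dosed male pups lay in the first batch with the vehicle pups, and dosed adults lay in the second with the vehicle adults and the dosed female pups. Batch and age therefore cannot be told apart within the male comparison. The same age contrast in vehicle males crosses the same batches, so an additive batch effect cancels in the difference between the contrasts, called age by dose. Dosed female pups share the batch of the dosed adults, and give an age contrast within it that also holds the difference in sex.

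Rat liver finishes its functional maturation between weaning and puberty. Hepatocytes leave the cell cycle, imprinted and fetal genes are shut down, and the pulses of growth hormone in adult males switch on a set of male-typed genes through the transcription factor STAT5b. Those genes include cytochrome P450 enzymes of steroid metabolism, such as Cyp2c11, and urinary proteins. Females, whose growth hormone release is more even, keep Cyp2c12 and other female-typed genes. PBDE mixtures are known to activate the constitutive androstane receptor (CAR) and the pregnane X receptor (PXR), which control drug-metabolising enzymes, and technical mixtures can also activate the aryl hydrocarbon receptor (AhR).

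**Figure D1:**
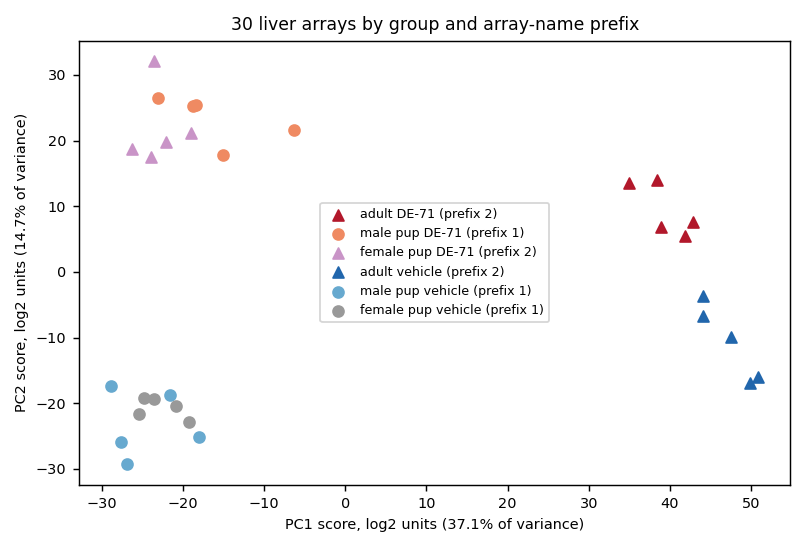
Each point is 1 of the 30 liver arrays on the first 2 principal components of all tested probe sets, with the share of variance on each axis and the symbol giving the group. Adults lie at the right and pups of both batches at the left of PC1, and the dosed groups lie above the vehicle groups of the same age on PC2.

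The plot of principal components shows where the dosed livers lay among the rest. PC1 held 37.1% of the variance, and the dosed adults scored 34.96 to 42.88 on it, below the vehicle adults (44.06 to 50.88). Dosed male pups scored -23.06 to -6.37 and dosed female pups, in the other batch, -26.27 to -18.96. On PC2, with 14.7% of the variance, dosed male pups (17.80 to 26.56) lay above dosed adults (5.49 to 14.01), while vehicle pups lay below vehicle adults. Markers of hepatocytes averaged 13.67 to 13.73 on the log2 scale in dosed adults and 13.62 to 13.70 in dosed male pups, and those of exocrine pancreas 4.95 to 5.29 and 5.09 to 5.34, which is below the array medians of 5.72 to 5.77. The labelled tissue thus had its defining markers in every dosed array. The 3' minus 5' difference of the Gapdh control probe sets, which rises as RNA degrades, was 1.17 ± 0.62 (SD, n = 5) in dosed adults and 2.09 ± 0.65 in dosed male pups (two-sided exact permutation p = 0.0556, adjusted 0.0889 over 8 tests). In vehicle males the difference was 0.62 ± 0.18 against 1.61 ± 0.33 (exact permutation p = 0.00794, adjusted 0.0317). Dosed adult 5 stood apart from the other dosed adults, with a Gapdh difference of 2.25 against 0.73 to 1.04 and an Actb difference of 3.78 against 2.12 to 2.49, and its Gapdh value lay above those of 3 of the 5 dosed male pups. It also had the lowest mean correlation with the arrays of its own group in the study (0.988). Without it the Gapdh difference between the dosed ages was -1.20 (exact permutation p = 0.0159, not adjusted). Dosed adult 5 stood out by this same measure, so that value is a description only. Leaving out any other dosed male array in turn gave exact permutation p from 0.0476 to 0.111.

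Under DE-71, 4364 of 31042 probe sets differed between dosed adults and dosed male pups (14.1%; limma, false discovery rate 0.05, n = 5 per group). Of these, 1662 were higher (5.35%) and 2702 lower (8.70%) in adults, and 488 differed by at least 2-fold (1.57%). Read as genes, each from 1 representative probe set, 2670 of 14217 differed (18.8%), 739 of them higher (5.20%) and 1931 lower (13.6%). With the Gapdh 3' minus 5' difference as a covariate the count was 2875 probe sets, and without dosed adult 5 it was 4598. The comparison of dosed adults with dosed female pups within 1 batch gave 5013 probe sets (16.1%), and that of dosed female with dosed male pups, which crosses the batches, gave 17 (0.0548%). The dosed adults lay wholly on one side of the dosed male pups for 1911 genes (13.4%). All 5 dosed adults lay above all 10 dosed pups for 387 genes (2.72%) and below them for 1009 (7.10%). Every one of the 12 largest increases and 12 largest decreases described next met that condition, by the rule that chose them.

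Of the 12 largest increases, 6 were of genes on the male-biased list, namely Obp3, Hsd3b5, Cyp2a2, Stac3, Cyp2c13 and Cyp2c11. That list holds 14 of the 14217 genes read. It was chosen with earlier results of these data known, so the overlap is a description only. Obp3, which encodes alpha-2u-globulin, the male urinary protein of the rat, had log2 levels of 13.55, 13.68, 13.81, 14.08 and 13.85 in dosed adults and 3.90, 3.92, 3.64, 4.28 and 4.31 in dosed male pups. The adults formed a tight high group and the pups lay at the floor of the array, without overlap. The difference was 9.78 ± 0.12 (SE) on the log2 scale (adjusted p = 4.15e-31). Mup5, a further member of the urinary protein family, had 10.37, 10.62, 10.55, 10.37 and 10.40 in dosed adults against 3.80, 4.04, 3.74, 4.51 and 4.15 in pups, a difference of 6.41 ± 0.11. Hsd3b5, a steroid dehydrogenase, had 11.68, 12.24, 12.29, 12.01 and 12.21 in adults and 6.28, 4.50, 4.31, 5.01 and 4.34 in male pups, with 1 pup at 6.28 well above the other four. The difference was 7.20 ± 0.21 (adjusted p = 4.17e-21). Cyp2a2, a male-typed testosterone hydroxylase, had 12.85, 12.94, 12.72, 12.80 and 13.09 in adults and 5.88, 6.23, 5.83, 6.40 and 5.81 in male pups, a difference of 6.85 ± 0.16, and here neither group held an array apart.

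Cyp3a9, a sex- and age-dependent member of the Cyp3a family, was 5.82 ± 0.29 higher in dosed adults, whose levels ran from 11.80 to 12.39, against 5.15 to 7.45 in male pups. Dhrs7l1, a short-chain dehydrogenase, differed by 6.54 ± 0.25, Akr1c1, an aldo-keto reductase, by 4.97 ± 0.21, Hao2, a peroxisomal hydroxyacid oxidase, by 4.43 ± 0.35 and the organic anion transporter Ust5r by 4.33 ± 0.35. Stac3, an adaptor protein best known from muscle, had 10.23, 12.37, 11.76, 8.32 and 11.69 in dosed adults and 5.80, 6.00, 5.84, 5.65 and 5.89 in male pups. One adult at 8.32 lay between the other adults and the pups, and the difference was 5.04 ± 0.43 (adjusted p = 9.63e-10). Cyp2c11, the most abundant male-typed P450, had 14.26, 14.14, 14.19, 14.29 and 14.33 in adults and 10.88, 9.58, 8.80, 10.19 and 10.04 in male pups. The adults agreed closely while the pups spread widely, and the difference was 4.34 ± 0.32. Cyp2c13 had 14.05, 13.98, 13.97, 14.07 and 14.13 in adults against 10.52, 7.66, 7.38, 10.90 and 9.61 in male pups, a difference of 4.83 ± 0.48 (adjusted p = 1.54e-08), with the largest SD among male pups of the 12 genes (1.62). Adult means of Cyp2c11 and Cyp2c13 lay above 14, near the top of the scale. Pup means of Obp3, Hsd3b5, Mup5, Akr1c1 and Dhrs7l1 lay below the array medians. These differences may therefore understate the true ones. The 12 genes were chosen by the size of the measured difference, so their choice and order are uncertain in that respect. Members of the Cyp2a, Cyp2c, Cyp3a, Akr1c and urinary protein families have close relatives that a probe set may also bind, and their values are uncertain in that respect.

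**Figure D2:**
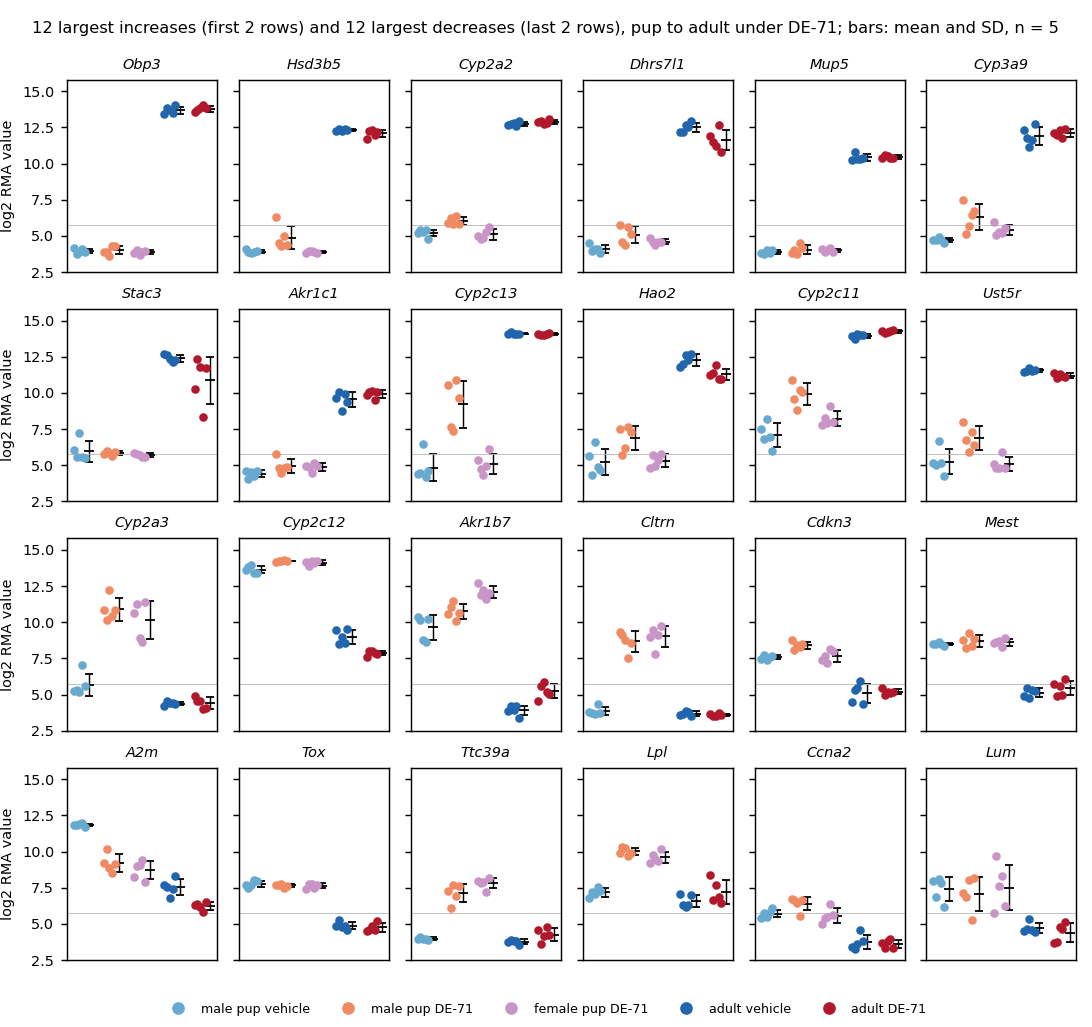
Log2 levels of genes with large age differences under DE-71, 1 panel per gene, with 1 point per array, bars for the mean and SD of 5 and a grey line at the median of the arrays. Obp3 and Hsd3b5 are low in all dosed pups of either sex and high in all dosed adults, while Cyp2a3 and Cyp2c12 show the reverse order.

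Of 16 male-biased adult liver genes listed, 14 were read, and 9 were higher in dosed adults and 0 lower, with a median difference of 2.47 against -0.03 over all genes. For this and every list below, the shares over all genes were 5.20% higher and 13.6% lower, and a count near them says nothing particular about a list. In vehicle males 12 were higher (10.9% of all genes were higher there), with a median of 6.63. Sult1e1, the oestrogen sulfotransferase, had 14.06, 14.21, 14.21, 13.91 and 13.96 in dosed adults and 11.77, 9.56, 11.54, 11.54 and 11.89 in dosed male pups. Pup 2 lay lowest, no array overlapped, and the difference was 2.81 ± 0.35 (adjusted p = 1.24e-06). Rup2, a small secreted urinary protein, had 14.83, 14.82, 14.86, 14.86 and 14.94 in adults and 12.77, 12.39, 11.16, 13.97 and 13.41 in male pups. The groups did not overlap, but the difference of 2.13 ± 0.79 missed the threshold in the fit of all groups (adjusted p = 0.0691). It passed in the fit of the compared groups alone (adjusted p = 0.00399), without dosed male pup 4 (2.43, adjusted p = 0.0483) and against dosed female pups (3.15, adjusted p = 0.00537). Over the alternatives Rup2 differed by 1.73 to 3.53, with adjusted p from 0.000361 to 0.214 by limma. The fit of all groups includes the vehicle male pups, whose Rup2 levels ran from 3.38 to 8.34.

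The largest decreases were headed by P450 enzymes and an aldo-keto reductase. Cyp2a3, a P450 known mainly from nasal and lung tissue, had 4.91, 4.54, 4.57, 4.00 and 4.05 in dosed adults and 10.81, 10.17, 12.25, 10.43 and 10.81 in dosed male pups. All adults lay below the array median and all pups far above it, and Cyp2a3 differed by -6.48 ± 0.50 (adjusted p = 1.15e-10). Cyp2c12, the female-typed steroid sulfate hydroxylase, had 7.62, 8.01, 8.02, 7.86 and 7.81 in adults and 14.18, 14.25, 14.21, 14.26 and 14.24 in male pups, near the top of the scale, and differed by -6.37 ± 0.17. Akr1b7, an aldose reductase relative, had 4.59, 5.59, 5.86, 5.19 and 5.07 in adults and 10.58, 11.08, 11.46, 10.07 and 10.61 in male pups, a difference of -5.50 ± 0.30. Cltrn, the amino acid transport partner also called collectrin, had 3.64, 3.51, 3.51, 3.72 and 3.57 in adults and 9.35, 9.14, 8.80, 7.49 and 8.60 in male pups, a difference of -5.09 ± 0.27, with the adults at the floor of the array. The other decreases were those of Cdkn3, Ccna2 and the imprinted gene Mest, described with their lists, and of 5 more genes. A2m, the acute phase protease inhibitor alpha-2-macroglobulin, fell by 2.95 ± 0.41. Tox, a nuclear factor of lymphoid development, fell by 2.90 ± 0.13, and Ttc39a fell by 2.86 ± 0.22. Lpl, lipoprotein lipase, had 8.40, 6.67, 7.67, 6.88 and 6.41 in adults and 9.91, 10.28, 10.23, 9.72 and 9.91 in male pups and fell by 2.81 ± 0.33. The matrix proteoglycan Lum fell by 2.71 ± 0.59, with dosed male pups at 5.25 to 8.16. These verbs stand for lower levels in the older animals, since no animal was followed over time.

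Of 14 female-biased adult liver genes, 13 were read, and 7 were lower in dosed adults and 0 higher (median -0.85). Apart from Cyp2c12 and Akr1b7, Sult2a2, a hydroxysteroid sulfotransferase, fell by 4.05 ± 0.81 (adjusted p = 0.000712), and its levels in male pups varied from 5.96 to 11.74 against 4.92 to 6.25 in adults. Male pup 5, at 5.96, lay among the adults and the other pups above them. Cyp2c7, counted with the female-typed genes, showed no such order. It had 14.39, 14.44, 14.44, 14.59 and 14.60 in dosed adults and 14.24, 14.46, 14.04, 14.46 and 14.14 in dosed male pups, overlapping groups near the top of the scale, with a difference of 0.22 ± 0.29 (adjusted p = 0.689).

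Genes of the cell cycle were lower in dosed adults nearly throughout. Of 34 listed genes 32 were read, 31 were lower (13.6% over all genes) and 0 higher, and 22 had all 5 adults below all 10 dosed pups (7.10% over all genes). The median difference was -1.28, and in vehicle males it was -0.85 with 27 genes lower (18.6% over all genes). The promoters of 3 genes of the list are shown because the genes moved together and promoters of G2 and M phase genes are known for 2 short elements, the CCAAT box bound by NF-Y and the cell cycle homology region with the core TTTGAA. Each runs from 250 bases before to 50 bases after the start of the gene in RefSeq's GRCr8 annotation, 5′ to 3′ on the gene's strand, with capitals marking CCAAT or TTTGAA on either strand. Cdk1 lies at chr20:19265043-19265342 (plus strand), Ccnb2 at chr8:79981609-79981908 (minus) and Mki67 at chr1:199952544-199952843 (minus).
Cdk1: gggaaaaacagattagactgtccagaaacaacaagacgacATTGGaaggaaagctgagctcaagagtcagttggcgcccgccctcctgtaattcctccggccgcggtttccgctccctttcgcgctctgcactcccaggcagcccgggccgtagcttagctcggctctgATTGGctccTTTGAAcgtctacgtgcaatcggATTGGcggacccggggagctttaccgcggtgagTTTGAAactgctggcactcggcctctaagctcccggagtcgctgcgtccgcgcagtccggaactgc
Ccnb2: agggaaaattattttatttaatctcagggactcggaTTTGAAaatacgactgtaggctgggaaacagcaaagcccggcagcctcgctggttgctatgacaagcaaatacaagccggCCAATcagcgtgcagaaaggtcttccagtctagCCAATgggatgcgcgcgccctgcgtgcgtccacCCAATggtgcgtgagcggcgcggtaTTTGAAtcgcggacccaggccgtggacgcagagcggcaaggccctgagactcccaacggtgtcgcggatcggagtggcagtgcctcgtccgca
Mki67: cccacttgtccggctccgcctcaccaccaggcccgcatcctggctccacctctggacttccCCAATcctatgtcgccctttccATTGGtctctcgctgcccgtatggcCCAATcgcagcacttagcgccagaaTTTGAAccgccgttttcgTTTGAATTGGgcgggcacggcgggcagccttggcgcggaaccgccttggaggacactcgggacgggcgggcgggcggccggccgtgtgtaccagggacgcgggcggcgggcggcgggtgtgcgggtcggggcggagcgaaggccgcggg

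Each of these windows held 2 copies of TTTGAA, and CCAAT was found 3 times in Cdk1, 3 times in Ccnb2 and 4 times in Mki67, where 1 copy overlaps a TTTGAA. A promoter was on hand for 26 of the 32 genes, and 19 held CCAAT (73.1%), 12 held TTTGAA (46.2%) and 10 held both (38.5%). Over all 33469 promoters of this length the shares were 37.5%, 18.3% and 7.41%. The list was counted by gene, over any promoter of that gene, and these shares by promoter, so the units differ. In 23 of those promoters a match of one element overlapped a match of the other. The matches describe letters in a window and not binding. Cdk1, the kinase that drives mitosis, had 5.44, 5.09, 4.82, 5.65 and 5.05 in dosed adults and 7.35, 7.74, 7.44, 6.95 and 7.17 in dosed male pups, and fell by 2.12 ± 0.24 (adjusted p = 1.58e-07). Mki67, which encodes the proliferation marker Ki-67, had 4.14, 4.23, 4.25, 4.31 and 4.20 in adults and 6.70, 6.86, 6.78, 6.12 and 6.80 in male pups. The adults sat together at the floor, male pup 4 lay below the other pups, and the difference was -2.43 ± 0.23. Ccnb2, a B-type cyclin, had 5.09, 5.13, 4.83, 5.10 and 4.99 in adults and 7.72, 7.35, 7.42, 7.43 and 7.58 in male pups and fell by 2.47 ± 0.21. Cdkn3, a phosphatase of cyclin-dependent kinases, fell by 3.23 ± 0.26, and cyclin A, Ccna2, fell by 2.78 ± 0.28. In all these genes the dosed adults lay wholly below the dosed pups of both sexes. Adult means of Cdk1, Mki67, Ccnb2, Cdkn3 and Ccna2 lay below the array medians, so the differences may be too small.

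Fetal and imprinted genes also sat lower in dosed adults. Of 21 listed genes 18 were read, 9 were lower (13.6% over all genes) and 0 higher (median -0.53), and 11 were lower in vehicle males (18.6% over all genes). Mest, an imprinted gene of embryonic growth, had 5.73, 4.91, 5.59, 5.00 and 6.10 in adults and 8.75, 8.20, 9.25, 8.36 and 8.84 in male pups and fell by 3.21 ± 0.18. H19, a noncoding transcript from an imprinted locus, had 6.75 to 7.23 in adults and 8.20 to 9.42 in male pups and fell by 1.89 ± 0.23 (adjusted p = 6.97e-07). Vehicle male pups held far more of it, 12.28, 12.54, 12.56, 12.90 and 12.77, while vehicle adults (6.53 to 6.88) lay near the dosed ones. Dcn, a matrix proteoglycan in this list, fell by 1.51 ± 0.37. Afp, the fetal albumin alpha-fetoprotein, had 9.18, 9.29, 8.72, 8.38 and 8.41 in adults and 9.24, 10.74, 9.36, 9.43 and 9.76 in male pups. The groups overlapped and the difference of -0.91 ± 0.43 missed the threshold (adjusted p = 0.169). Igf2, the imprinted fetal growth factor, differed by -0.25 ± 0.20 (adjusted p = 0.46), with levels near the array median at either age.

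Markers of connective tissue and of red cell precursors were lower in dosed adults as well. In bulk liver, fewer cells of a type and less RNA per cell cannot be told apart. All 28 matrix and stellate cell markers were read, and 19 were lower and 0 higher (median -0.87). Their mean level ran from 6.98 to 7.33 in dosed adults, 7.95 to 8.40 in dosed male pups and 7.78 to 8.62 in dosed female pups. Col1a2, a chain of type I collagen, had 7.43, 7.26, 7.75, 7.22 and 7.04 in adults and 9.09, 9.54, 9.93, 9.15 and 9.65 in male pups and fell by 2.13 ± 0.23 (adjusted p = 9.12e-08). Fbn1, fibrillin, fell by 2.13 ± 0.19. In vehicle males 21 of the 28 were lower (18.6% over all genes), with a median of -0.85, close to that under DE-71. Of 18 erythroid markers 12 were read, and 6 were lower and 0 higher, with mean levels of 5.65 to 6.16 in dosed adults and 6.48 to 6.95 in dosed male pups. Slc4a1, the red cell anion exchanger, fell by 2.30 ± 0.28, Ahsp, the globin chaperone, fell by 1.76 ± 0.22 and Alas2, the erythroid enzyme of haem synthesis, fell by 1.74 ± 0.28. The transferrin receptor Tfrc, which takes up iron, had 9.26, 9.56, 9.07, 8.99 and 8.79 in adults and 10.65, 11.18, 11.57, 10.58 and 10.87 in male pups and fell by 1.84 ± 0.21, the largest difference in a list of haem and iron genes in which 6 of 17 were lower and 1 higher. Without dosed adult 5 only 3 of that list were lower. The part that these markers have in the other decreases was not tested.

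Hepatocyte markers gave 1 higher and 2 lower of 16, and 18.8% of all genes differed. Among them Asgr2, an asialoglycoprotein receptor chain, differed by 0.36 ± 0.08, a call lost with the Gapdh covariate (0.18, adjusted p = 0.159), and Apoa1, the main protein of high-density lipoprotein, by -0.45 ± 0.08. Kupffer cell and macrophage markers gave 1 higher, Lyz2 (1.02 ± 0.23), and 1 lower, the scavenger receptor Cd163 (-0.80 ± 0.15), of 14. Of 14 endothelial markers 2 were higher and 4 lower, and with the covariate 0 were higher. Among the lower were Tie1 at -0.75 ± 0.08 and Stab2 at -0.58 ± 0.13. Fcgr2b was among the higher at 0.52 (adjusted p = 0.00238), and was 0.30 with the covariate (adjusted p = 0.115). In vehicle males 0 of these 14 were higher and 8 lower (10.9% and 18.6% over all genes). Of 9 cholangiocyte markers 1 was higher and 2 lower. Ggt1, the membrane gamma-glutamyltransferase that fetal hepatocytes also make, fell by 1.72 ± 0.23. Krt19 fell by 0.63 (adjusted p = 0.0122), a call lost with the covariate (adjusted p = 0.0677) and without dosed male pup 3 (adjusted p = 0.0537). Aqp1 went the other way, at 0.91 (adjusted p = 0.000848). By limma, 0 of 19 lymphocyte, 0 of 10 neutrophil and 0 of 12 pancreas markers passed (1, 3 and 1 at an unadjusted p under 0.05), and 1 of 11 adipose markers was higher and 2 lower.

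**Figure D3:**
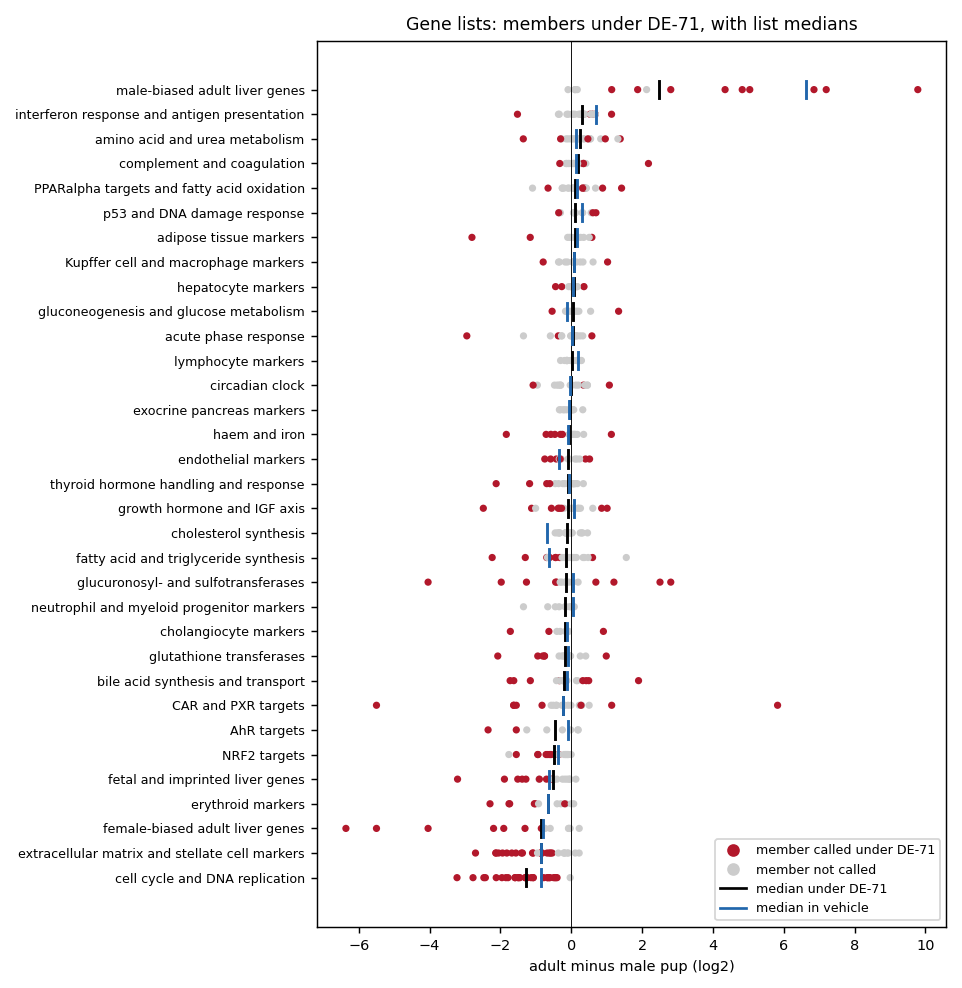
Log2 difference between adults and male pups for each gene list, with list medians under DE-71 and in vehicle males (black and blue bars), with 1 point per member for its difference under DE-71, red where it passed. Male-biased genes lie far to the right and cell cycle, matrix and erythroid genes to the left in both, while cholesterol synthesis lies at -0.12 under DE-71 and -0.69 in vehicle males.

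Genes of xenobiotic response, which DE-71 is known to raise, were also compared between the ages within the dosed animals. Cyp1a1, the classic AhR target, had 12.80, 12.18, 12.69, 14.02 and 12.30 in dosed adults and 13.64, 13.76, 14.49, 14.29 and 14.11 in dosed male pups. Adult 4 reached the pup range while the other adults lay below it, and the difference of -1.26 ± 0.44 missed the threshold (adjusted p = 0.0523). It passed without dosed adult 4 (-1.56, adjusted p = 0.018) and against dosed female pups (-1.54, adjusted p = 0.0144). Cyp1a2, its liver-rich relative, differed by -0.25 ± 0.18 (adjusted p = 0.39), with both groups near the top of the scale. Cyp1b1 had 5.42, 5.26, 5.25, 5.18 and 5.22 in adults and 5.13, 5.83, 10.69, 8.78 and 7.64 in male pups. Pups ranged from the adult level to far above it, and the difference of -2.35 ± 0.60 (adjusted p = 0.00683) was lost in a fit of the compared groups alone (adjusted p = 0.0868). Of 8 AhR targets read, 2 were lower in dosed adults and 0 higher.

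Among 20 CAR and PXR targets read, 3 were higher and 5 lower (5.20% and 13.6% over all genes). Ces2c, a carboxylesterase, fell by 1.63 ± 0.21 and the exporter Abcc3 fell by 1.62 ± 0.25, while Cyp3a9 is the large increase described above. Abcc3 had 9.26, 8.02, 9.03, 9.12 and 9.69 in dosed adults and 10.47, 10.55, 11.05, 10.53 and 10.64 in dosed male pups, with every adult below every pup. Cyp3a23-3a1 and Cyp3a2, the abundant Cyp3a enzymes, differed by -0.19 ± 0.09 and -0.09 ± 0.07 (adjusted p = 0.172 and 0.425), at means of 14.45 to 14.77 near the top of the scale. Nr1i3, which encodes CAR, differed by -0.01 ± 0.19, without a stable sign. Of 17 NRF2 targets, genes of the antioxidant response, 9 were lower and 0 higher. Nqo1, quinone reductase, had 11.33, 9.79, 10.91, 11.70 and 10.69 in adults and 12.51, 11.97, 13.01, 12.56 and 12.15 in male pups. The highest adult lay below the lowest pup, and Nqo1 fell by 1.55 ± 0.26 (adjusted p = 8.01e-05). The glutathione transferase Gsta4 fell by 0.95 ± 0.09. The count of 9 rested on small margins. It was 5 without dosed male pup 1, 4 without dosed male pup 3, 5 without dosed adult 2, 3 or 5, and 5 with the Gapdh covariate. Glutathione transferases gave 1 higher, Gstm3 (0.99 ± 0.19), and 5 lower of 20, Gsta3 with the largest difference (-2.08 ± 0.33), and with the covariate 3 were lower. Glucuronosyl- and sulfotransferases gave 4 higher and 5 lower of 18, among them Sult1c3 (2.50 ± 0.36), a male-typed sulfotransferase.

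Hormone axes changed in parts. Of 16 genes of growth hormone and IGF signalling, 2 were higher and 6 lower in dosed adults (5.20% and 13.6% over all genes). Ghr, the growth hormone receptor, had 12.58, 12.41, 12.21, 12.36 and 12.25 in adults and 11.48, 11.72, 10.98, 11.67 and 11.67 in male pups and rose by 0.86 ± 0.16 (adjusted p = 0.000383), and Igfals, which holds IGF1 in the circulation, rose by 1.01 ± 0.13. Igfbp1 and Igfbp2, binding proteins high in the young and the fasted, differed by -2.48 ± 0.63 and -1.12 ± 0.31. Igf1 itself differed by 0.20 ± 0.08 (adjusted p = 0.0726), and passed without dosed male pup 5 (0.25, adjusted p = 0.037) or dosed adult 1 (0.25, adjusted p = 0.0355). It also passed with the filter on low values (adjusted p = 0.0488), on its probe set of largest variance (0.45, adjusted p = 0.0336) and against dosed female pups (0.32, adjusted p = 0.00352). Over the alternatives Igf1 differed by 0.15 to 0.45, with adjusted p from 0.00352 to 0.271 by limma. Of 17 thyroid genes 4 were lower and 0 higher. Serpina7, thyroxine-binding globulin, fell by 2.12 ± 0.39 and Gpd2, a mitochondrial enzyme induced by thyroid hormone, fell by 1.18 ± 0.26. Dio1, the liver deiodinase, differed by -0.45 ± 0.23 (adjusted p = 0.211). Without dosed male pup 1 or dosed adult 3, or with the covariate, 2 thyroid genes were lower.

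Lipid and bile acid genes went in both directions. Cyp7a1, the rate-limiting enzyme of bile acid synthesis, had 7.63, 8.56, 9.05, 11.31 and 11.06 in dosed adults and 11.14, 10.65, 11.92, 11.31 and 11.22 in dosed male pups. Adults 1 to 3 lay below all pups and adults 4 and 5 among them. The difference of -1.73 ± 0.49 passed (adjusted p = 0.0163) but not without dosed adult 1 (-1.25, adjusted p = 0.0684), dosed adult 2 (-1.49, adjusted p = 0.0557) or dosed male pup 3 (-1.56, adjusted p = 0.0505), nor with the Gapdh covariate (-1.29, adjusted p = 0.179), nor in a fit of the compared groups alone (adjusted p = 0.0906). Cyp8b1, which makes cholic acid, had 11.40, 12.02, 12.18, 12.54 and 12.67 in adults and 10.13, 9.49, 10.88, 9.95 and 10.87 in male pups and rose by 1.90 ± 0.31 (adjusted p = 6.06e-05). In vehicle males Cyp8b1 differed by 0.02 ± 0.31 (adjusted p = 0.976), with means of 11.84 in adults and 11.82 in male pups. Under DE-71, 4 bile acid genes of 19 were higher and 4 lower in all. The lower count was 2 without dosed adult 1 or 2 and 7 without dosed adult 5. With the covariate 2 were higher and 2 lower. Of 22 genes of fatty acid and triglyceride synthesis 7 were lower, led by Elovl6, a fatty acid elongase (-2.23 ± 0.33), and Gpam, the first enzyme of glycerolipid synthesis (-1.30 ± 0.20), and 1 was higher. Of 19 genes of cholesterol synthesis 0 passed under DE-71 by limma in either direction (3 at an unadjusted p under 0.05), where the median was -0.12. In vehicle males 13 were lower (18.6% over all genes) and the median was -0.69. Fgf21, a hormone of the fasted liver, had 7.53, 6.85, 8.13, 8.63 and 6.47 in adults and 5.77, 5.97, 5.93, 6.70 and 6.14 in male pups, overlapping groups that differed by 1.42 ± 0.37 (adjusted p = 0.00861). Against dosed female pups it differed by 0.93 (adjusted p = 0.0856). Of 22 genes of PPARalpha and fatty acid oxidation 5 were higher and 1 lower, 3 were higher without dosed male pup 1 or 3, and 2 with the covariate.

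Pck1, which commits carbon to gluconeogenesis, rose by 1.34 ± 0.31 (adjusted p = 0.00346), 1 of 13 genes of its list, and with the Gapdh 3' minus 5' covariate the difference was 0.83, adjusted p = 0.129. Hal, the histidine ammonia lyase, rose by 1.38 ± 0.18, and Glul, the glutamine synthetase of pericentral hepatocytes, had 10.61, 11.22, 10.44, 10.77 and 10.97 in adults and 12.15, 12.26, 11.82, 12.12 and 12.44 in male pups and fell by 1.36 ± 0.12. Of 23 amino acid genes 3 were higher and 2 lower, 6 were higher without dosed male pup 2, dosed adult 3 or dosed adult 5, and 1 with the covariate. The list median was 0.26, and 15 of the 23 had an unadjusted p under 0.05. Of 26 complement and coagulation genes 4 were higher and 1 lower (18.8% of all genes differed), with C6 at 2.18 ± 0.28, and 2 were higher with the covariate. Of 27 genes of interferon response and antigen presentation 6 were higher and 1 lower. The immunoproteasome subunits Psmb8 and Psmb9 rose by 1.14 ± 0.24 and 0.68 ± 0.16, and the antiviral Rsad2 fell by 1.52 ± 0.21. In vehicle males 19 of these 27 were higher and 1 lower (10.9% and 18.6% over all genes). Clock genes gave 2 higher, among them Npas2 (1.07 ± 0.22), and 1 lower, Hlf (-1.08 ± 0.21), of 16 (18.8% of all genes differed). The p53 list gave 2 higher, Phlda3 (0.70 ± 0.18) and Sesn2 (0.61 ± 0.12), and 1 lower of 12. The acute phase list gave 1 higher and 2 lower of 20, and A2m was the largest of these.

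The vehicle males, with no animal in common with the dosed ones, gave the same contrast without DE-71. There 4193 genes differed (29.5%), 1554 higher (10.9%) and 2639 lower (18.6%) in adults. Across all 14217 genes the differences at the 2 doses had a Pearson r of 0.78 and a Spearman rho of 0.63, a description over genes, which are not replicates and share the batches. Of 330 genes that differed by at least 2-fold under DE-71, 325 had the same direction in vehicle males and 295 passed there, and the vehicle difference was a median 0.989 of the dosed one (quartiles 0.69 and 1.21). Of 519 genes that differed by at least 2-fold in vehicle males, 501 had the same direction under DE-71 and 387 passed there, and the dosed difference was a median 0.635 of the vehicle one (quartiles 0.41 and 0.91). That share was 0.58 for the 220 genes higher in vehicle adults and 0.68 for the 299 lower. Choosing genes by the size of one contrast favours that contrast, so the shares are given with no test.

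**Figure D4:**
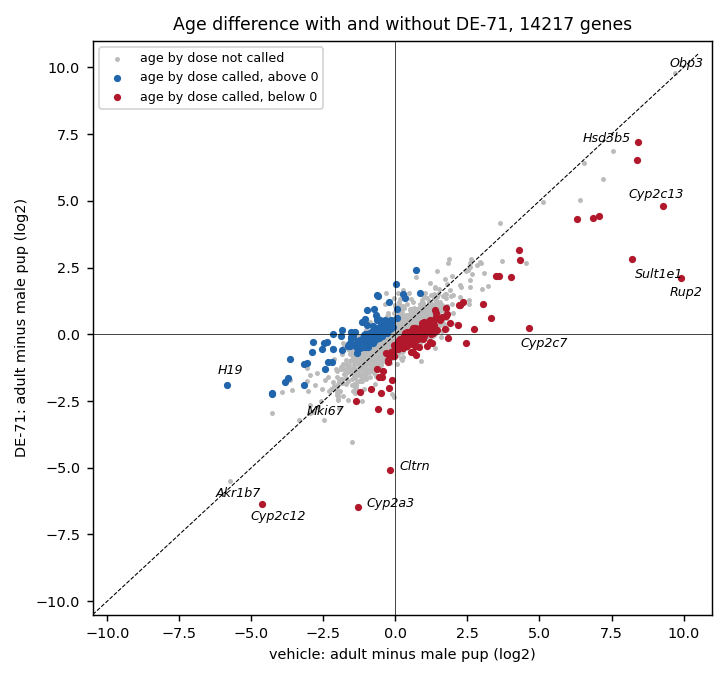
Age difference of each gene under DE-71 (y axis) against the same difference in vehicle males (x axis), both in log2 units, with genes past the age-by-dose threshold in colour and the line marking equal differences. Of 519 genes that differed by at least 2-fold in vehicle males, 501 have the same direction under DE-71. Their dosed difference is a median 0.635 of the vehicle one. Rup2, Cyp2c7 and Sult1e1 lie far to the right of 0 with smaller dosed differences. Cyp2a3 and Cltrn lie far below 0 on the y axis with vehicle differences of -1.29 and -0.17.

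The difference of the contrasts, age by dose, passed for 579 probe sets (1.87%), 258 above (0.831%) and 321 below 0 (1.03%), and for 352 genes (2.48%). The count was 365 without vehicle male pup 5, 373 without dosed adult 4 and 376 without dosed male pup 4. Among the 160 genes above 0 (1.13%), 105 were lower in vehicle adults and did not pass under DE-71, 27 passed at either dose in 1 direction, 8 passed in opposite directions, 17 passed under DE-71 alone and 3 in neither. Among the 192 below 0 (1.35%), 99 were higher in vehicle adults and did not pass under DE-71, 43 passed at either dose in 1 direction, 9 in opposite directions, 40 under DE-71 alone and 1 in neither.

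Among the genes furthest below 0 were some in which dosed male pups stood nearer the adult level than vehicle male pups did. Rup2 had 5.66, 3.38, 8.34, 3.80 and 3.42 in vehicle male pups against the 11.16 to 13.97 of dosed ones, and 14.78 to 14.91 in vehicle adults, so that its age difference was 9.92 ± 0.79 in vehicle and 2.13 ± 0.79 under DE-71 (age by dose -7.79 ± 1.11, adjusted p = 0.000166). Cyp2c7, a retinoic acid hydroxylase, had 10.40, 10.27, 8.78, 9.79 and 9.29 in vehicle male pups, each below all dosed pups, and its age by dose was -4.40 ± 0.41 (adjusted p = 1.18e-07). Sult1e1 had 6.48, 6.43, 7.10, 5.20 and 5.47 in vehicle male pups and 14.24 to 14.43 in vehicle adults (age by dose -5.41 ± 0.50), and Cyp2c13 had 4.41, 4.46, 6.45, 4.17 and 4.58 in vehicle male pups (age by dose -4.45 ± 0.67). The chemokine Cxcl9 (-2.80 ± 0.48) had 5.51 to 6.25 in vehicle male pups and 8.30 to 10.23 in dosed ones. Socs2, a feedback inhibitor that growth hormone induces, differed in another way. It had 8.37, 8.88, 8.92, 8.70 and 9.39 in vehicle adults and 6.37, 6.73, 8.30, 6.37 and 6.05 in dosed adults, whose adult 3 alone came near the vehicle level, while dosed male pups ran from 5.57 to 6.88 (age by dose -2.70 ± 0.49, adjusted p = 0.00281). Other genes were higher in dosed than in vehicle male pups and low in adults of either dose. Cyp2a3 had 5.15 to 7.02 in vehicle male pups and 4.20 to 4.54 in vehicle adults (age by dose -5.19 ± 0.71), and Cltrn 3.66 to 4.34 and 3.50 to 3.85 (-4.91 ± 0.38, adjusted p = 6.19e-09). Ttc39a (-2.66 ± 0.31) and Lpl (-2.20 ± 0.46) had the same order. Rup2, Cyp2c7, Sult1e1 and Cyp2c13 lay above 14 in adults, near the top of the scale.

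**Figure D5:**
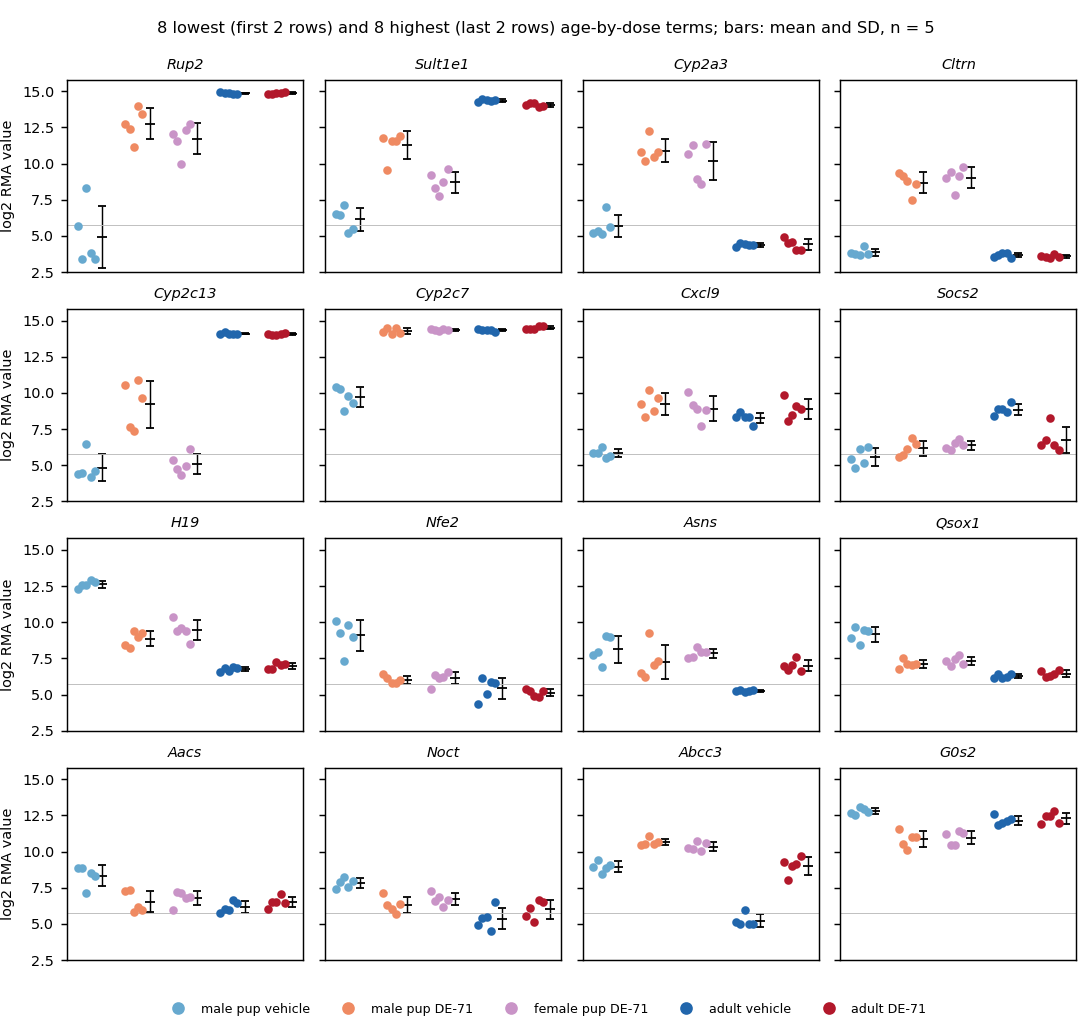
Log2 levels of genes with large age-by-dose values, 1 panel per gene, with 1 point per array and bars for the mean and SD of 5, in male pups and adults at either dose and in dosed female pups. Rup2, Sult1e1 and Cyp2c7 are higher in dosed than in vehicle male pups and similar in adults, H19 is lower in dosed pups, and Cyp2a3 and Cltrn are higher in dosed pups than in the other groups shown.

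Above 0, H19 had the largest value, 3.97 ± 0.32 (adjusted p = 9.9e-09), from age differences of -5.85 ± 0.23 in vehicle and -1.89 ± 0.23 under DE-71. Nfe2, a transcription factor of red cell and platelet precursors, had 10.08, 9.24, 7.35, 9.79 and 8.96 in vehicle male pups and 6.44, 6.15, 5.76, 5.78 and 6.04 in dosed ones, and 4.82 to 5.36 in dosed adults (age by dose 2.72 ± 0.58). Asns, asparagine synthetase, had 5.25, 5.32, 5.15, 5.24 and 5.30 in vehicle adults and 6.94, 6.70, 7.05, 7.59 and 6.65 in dosed adults, with every dosed adult above every vehicle one, and its age by dose was 2.59 ± 0.58 (adjusted p = 0.0157). Dosed male pup 3 at 9.24 lay far above the other dosed pups. Abcc3 had 5.14, 4.99, 5.99, 4.98 and 4.99 in vehicle adults against the 8.02 to 9.69 of dosed ones, and 8.45 to 9.43 in vehicle male pups (age by dose 2.11 ± 0.35). G0s2, an inhibitor of fat breakdown, turned direction. It rose by 1.46 ± 0.23 under DE-71 and fell by 0.65 ± 0.23 in vehicle (age by dose 2.11 ± 0.33, adjusted p = 0.000555). Qsox1, a sulfhydryl oxidase, reached 2.23 ± 0.26. Aacs, which activates acetoacetate, reached 2.16 ± 0.51 and lost its call without dosed adult 4 (2.02, adjusted p = 0.0518). Noct, a clock-controlled phosphatase, reached 2.16 ± 0.56 (adjusted p = 0.0391), and lost its call when any of 14 arrays was left out in turn (adjusted p 0.0518 to 0.0829). Of the 19 cholesterol synthesis genes 4 passed above 0 (1.13% over all genes). They were Lss (1.43 ± 0.28), Hsd17b7 (1.39 ± 0.32), Msmo1 (1.14 ± 0.30) and Nsdhl (0.67 ± 0.18), named after their values were seen. The count was 2 without any 1 of 11 arrays and 10 without vehicle male pup 3.

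Set against dosed female pups, within 1 batch, dosed adults differed in 3053 genes (21.5%), 886 of them higher (6.23%) and 2167 lower (15.2%). The male-biased list gave 11 higher of 14 and a median of 4.16, the cell cycle list 30 lower of 32 and a median of -0.88, and the matrix list 20 lower of 28 and a median of -0.84. These values share the dosed adults with those given above and are not a repeat of them. Cyp2c13 differed by 8.95 there and by 4.83 against dosed male pups, and female pups lay at 5.34, 4.74, 4.32, 4.94 and 6.09. Between dosed female and dosed male pups, the female minus male difference was -4.13 for Cyp2c13 (adjusted p = 5.69e-06), -2.54 for Sult1e1 (adjusted p = 0.000197), -1.79 for Ust5r, -1.69 for Cyp2c11 and -0.93 for Cyp2a2, and these 5 are among the 11 genes that passed (0.0774%). In vehicle pups, of 1 batch, the same differences were -0.45, -0.76, -0.31, -0.18 and -0.23, and none of these passed (0.176% of all genes did). Sex and batch cannot be told apart between the dosed pups, and whether the sex difference changed with dose was not tested.

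Some genes varied widely among the dosed livers of 1 age. Ugt2b, a glucuronosyltransferase, had an SD of 3.44 in dosed adults, 4 of which lay at 13.18 to 13.39 and adult 4 at 5.61. In dosed male pups it had 12.26, 5.46, 4.70, 11.05 and 11.59 (SD 3.63), and its SD was 4.46 in vehicle adults. RGD1309362 ran from 4.52 to 11.32 in dosed adults and from 4.52 to 11.08 in dosed male pups, and RT1-N2, a gene of the major histocompatibility complex, from 4.13 to 8.61 in dosed adults. Dbp, a clock output factor, had 5.52, 5.79, 5.85, 7.81 and 9.95 in dosed adults (SD 1.89), against an SD of 0.37 in vehicle adults. Among dosed male pups RT1-T24-4 had 3 arrays at 9.97 to 10.34 and 2 at 3.57 and 3.89, and Cyp1b1 (SD 2.24) ran from 5.13 to 10.69 where dosed adults had an SD of 0.09. These genes were chosen for their spread, which is described here with no test.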

How the data were processed

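RNA of 30 rat livers in 6 groups of 5 was labelled from the 3' end in 2 cycles and hybridised to Affymetrix Rat Genome 230 2.0 arrays, per the labels' protocols. The authors deposited 1 log2 value per probe set and array, computed by RMA according to the submitters' processing notes, which name no software (per the labels, no version either). RMA equalises the arrays' distributions, so differences are relative to the array as a whole. The number of arrays limits the precision.

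Of 31099 probe sets, 57 controls were set aside and 31042 tested. GEO's platform annotation, which can be old, named 1 gene for 20826 probe sets, several for 436 and none for 9780, and 20758 symbols were updated through RefSeq's table. A gene was read from the probe set naming it alone with the highest mean, which gave 14217 genes. Values were fitted with limma 3.58.1 in R 4.3.3 (lmFit, contrasts, eBayes) with 1 mean per group over all 30 arrays and adjusted by Benjamini-Hochberg over all 31042 probe sets, with a false discovery rate of 0.05. Errors of differences are standard errors, and other errors are SD. The fit was tested on simulated data. Control probe sets were compared by exact permutation (scipy 1.17.1).

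Named genes were 22 index genes (21 read), the 12 largest increases and 12 largest decreases with all dosed adults on one side of all 10 dosed pups, the 8 highest and 8 lowest age-by-dose values, up to 3 passing members of each of 33 lists, and the 5 most variable genes per dosed group. These members and lists were chosen with earlier results of these data known. Same-numbered animals share only a number and were not treated as pairs. Between dosed adults and dosed male pups, 3 of 5 same-number correlations of deviations exceeded 0.1 (-0.03 to 0.29). Over all pairs of the 4 male groups 7 of 30 did (-0.34 to 0.29). Pairs of unlike number were not set beside them, so these values do not decide whether the numbers pair animals. Alternatives covered the arrays fitted, replicate block, variance shrinkage, normalization, a filter on low values, thresholds, RNA integrity, single arrays left out, the probe set of a gene and dosed female pups. The study's own analysis of variance was not rerun.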

Additional observations from a re-analysis of the deposited data

Results flagged for a closer look

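Single arrays stood apart from the other four of their group in 15 of 266 groups of 5 examined, and chance alone sets about 1 in 20 groups apart by the same measure (Dixon's ratio). Cyp1a2 was low in dosed adult 5, at 14.08 against 14.33 to 14.42 in the others. For Abcc3, vehicle adult 3 had 5.99 and the others 4.99 to 5.14. Sult1e1 was low in dosed male pup 2, at 9.56 against 11.54 to 11.89 in the others. For Mki67, dosed male pup 4 had 6.12 and the others 6.70 to 6.86. Dio1 was high in dosed male pup 1, at 9.08 against 7.88 to 8.11 in the others. For Cyp2c13, vehicle male pup 3 had 6.45 and the others 4.17 to 4.58. Cyp2a3 was high in vehicle male pup 4, at 7.02 against 5.15 to 5.62 in the others. For Cltrn, vehicle male pup 4 had 4.34 and the others 3.66 to 3.79. Ccna2 was low in dosed male pup 4, at 5.57 against 6.46 to 6.70 in the others. For Gstm3, dosed adult 4 had 8.18 and the others 7.59 to 7.75. Angptl4 was low in dosed adult 5, at 10.20 against 11.14 to 11.51 in the others. For Hal, dosed male pup 3 had 8.46 and the others 8.97 to 9.16. Psmb9 was high in dosed male pup 5, at 9.65 against 9.18 to 9.31 in the others. For the 3' minus 5' difference of Gapdh, dosed adult 5 had 2.25 and the others 0.73 to 1.04. The 3' minus 5' difference of Actb was high in dosed adult 5, at 3.78 against 2.12 to 2.49 in the others.

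The age difference itself changed with dose for 32 named genes by limma's test of the difference. Up to 16 of the 32 were named for this value and 2.48% of all genes passed, so their number is a description of the choice. Below 0, where the adult minus pup difference was smaller or more negative under DE-71, were Rup2 (-7.79), Sult1e1 (-5.41), Cyp2a3 (-5.19), Cltrn (-4.91), Cyp2c13 (-4.45), Cyp2c7 (-4.40), Cxcl9 (-2.80), Socs2 (-2.70), Ttc39a (-2.66) and Hao2 (-2.64). Further genes below 0 were Cyp2c11 (-2.50), Lpl (-2.20), Ust5r (-1.97), Dhrs7l1 (-1.86), Cyp2c12 (-1.74), Ggt1 (-1.59), Hsd3b5 (-1.21), Phlda3 (-1.05) and Gsta4 (-0.70). Above 0 were H19 (3.97), Nfe2 (2.72), Asns (2.59), Qsox1 (2.23), Aacs (2.16), Noct (2.16), Abcc3 (2.11), G0s2 (2.11), Elovl6 (2.06), Igfbp2 (2.04), Fgf21 (2.02), Cyp8b1 (1.88) and Fcgr2b (0.64). Aacs, Noct and Fgf21 lost this call when certain single arrays were left out.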

How the results depend on the processing

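For age under DE-71, 2143 values of 113 named genes were compared over the alternatives other than the stricter thresholds. Of these, 2032 kept their direction and their side of the threshold, 79 lost the call, 16 gained it and 16 changed sign. For age by dose these were 824, 29, 6 and 3 of 862 values. At a false discovery rate of 0.01, a further 15 of the 113 genes lost the call for age under DE-71, and at 2-fold 30 did. For age by dose, 5 of 32 genes lost it at 0.01 and 0 at 2-fold. Settings for the female pup comparisons were added after the data were seen.

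The counts of probe sets moved as follows. With the Gapdh covariate they were 2875 (age under DE-71), 4305 (vehicle males) and 21 (vehicle females against males), the last against 35, which was 22 with trended and robust eBayes. At a false discovery rate of 0.01 they were 2396, 4508, 161 (age by dose), 2824 (adults against dosed females) and 11 (vehicle sexes), and at 2-fold 488, 834, 164, 547 and 18. Of 66 list counts for age under DE-71, 21 moved by over 1.5 times with the covariate and 14 against dosed females. Why they moved with the covariate was not tested. The stricter thresholds admit fewer probe sets by construction.

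Leaving out single arrays gave 3420 to 4598 (age under DE-71), 6112 to 6949 (vehicle males), 365 to 703 (age by dose), 4169 to 5057 (adults against dosed females), 13 to 29 (dosed sexes) and 17 to 41 (vehicle sexes). The dosed sexes reached 29 without dosed female pup 4, and the vehicle sexes 19 and 17 without vehicle male pups 4 and 5. The Gapdh 3' minus 5' difference ran from -1.20 to -0.71 and that of Actb from -1.27 to -0.76.

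With the replicate block the counts were 4304 (age under DE-71), 7117 (vehicle males), 542 (age by dose), 4909, 18 and 29; the samples share only a number.

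Signs turned for small differences. Nr1i3 under DE-71 was 0.012 with the covariate, 0.040 after renewed quantile normalization, 0.42 against dosed females and -0.097 to 0.15 with single arrays left out. Aacs was 0.23 with the covariate, 0.015 with renewed quantiles and -0.17 to 0.20 with single arrays left out, Asns -0.54 to 0.22 in the last case. Noct was 0.0043 with the covariate and Cyp3a2 0.12 against dosed females. For age by dose, Afp was -0.19 to 0.51 with single arrays left out and Igf1 0.042 on its probe set of largest variance. The cause was not tested. Signals near the floor and the top of the scale limit the differences of the genes named there.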
